A study of Mus musculus with 6 samples.

Results

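The genes described here are the Notch receptors, their Jagged and Delta-like ligands and a small set of direct Notch target genes, in mouse 2H11 cells exposed to bone morphogenetic protein 4 (BMP4) with or without palovarotene. They were chosen by symbol, as the core genes of the pathway, and no level or fold change enters the rule: Notch1 to Notch4, Jag1, Jag2, Dll1, Dll4, Hes1, Hey1, Hey2, Heyl and Nrarp. Of these 13 symbols, 9 had a row among the 11773 listed genes, and Dll1, Dll4, Hey2 and Heyl are not analysed here. The BMP4 + palovarotene group consisted of 3 libraries of starved 2H11 cells kept for 48 h with both agents, and the BMP4 group of 3 libraries kept for the same time with BMP4 alone. 2H11 is a line of C3H/HeJ mouse cells that the labels call endothelial and trace to an axillary lymph node. BMP4 is a secreted ligand that signals through SMAD proteins, and palovarotene is a synthetic retinoid that activates retinoic acid receptor gamma. Both groups received BMP4, so the values bear on what the retinoid changed in the presence of BMP4 and not on BMP4 itself. Nothing in the labels says that a group's libraries came from separate cultures, so the p-values below compare the groups with a spread between libraries that could be technical alone.

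Notch receptors are single-pass transmembrane proteins that are activated by ligands of the Jagged and Delta-like families on a neighbouring cell. Binding exposes the receptor to an ADAM protease and then to gamma-secretase, and the freed intracellular domain enters the nucleus, joins the DNA-binding protein RBPJ and a Mastermind co-activator, and switches on target genes such as those of the Hes and Hey repressors and Nrarp. In blood vessels the pathway is known for its part in arterial fate and in the choice between sprouting and trailing endothelial cells; Notch1 and Notch4 are the receptors best known from endothelium, and Notch3 is best known from vascular smooth muscle cells and pericytes.

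Promoters are shown for members that passed the test below, because RBPJ acts on DNA next to such start sites. RefSeq's table of promoters (build GRCm38.p6) held a window for 7 of the 9 listed members, and Hes1 and Hey1 had none. Jag2 also passed, but all 250 bases of its window lie in annotated exons and it is not shown. The 250 bases before each RefSeq start were searched on both strands for a set of short motifs. RBPJ binds around the letters GTGGGAA, and the shorter core inside them, TGGGAA, was searched as well. The E-box is written CACGTG here and the N-box, which Hes proteins bind, is written CACNAG in this search. Half-sites of nuclear receptors are written AGGTCA, and the BMP-SMAD type of element is written GGCGCC below. Each match of the longer RBPJ motif is also a match of its core, and the other motifs were counted separately. Sequences run 5′ to 3′ on the gene's own strand, without bases that GENCODE vM21 places in an exon, and capitals mark matches. The windows are Nrarp at chr2:25180508-25180757 (plus strand), Notch1 at chr2:26503825-26504072 (minus strand), Jag1 at chr2:137116645-137116770 (minus strand) and Notch3 at chr17:32166891-32167140 (minus strand). The Notch1 window lies inside the GENCODE span of that gene (26457903 to 26516663), because the RefSeq start it precedes is within that span.
Nrarp: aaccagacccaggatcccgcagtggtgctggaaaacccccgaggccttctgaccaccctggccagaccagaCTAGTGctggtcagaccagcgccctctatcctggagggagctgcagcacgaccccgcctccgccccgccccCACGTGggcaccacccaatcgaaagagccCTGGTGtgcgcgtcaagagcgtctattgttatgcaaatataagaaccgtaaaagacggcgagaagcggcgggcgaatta
Notch1: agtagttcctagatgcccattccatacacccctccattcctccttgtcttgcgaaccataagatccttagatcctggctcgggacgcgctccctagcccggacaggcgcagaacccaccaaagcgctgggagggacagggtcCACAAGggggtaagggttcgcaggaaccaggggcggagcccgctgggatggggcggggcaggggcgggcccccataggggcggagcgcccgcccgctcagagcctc
Jag1: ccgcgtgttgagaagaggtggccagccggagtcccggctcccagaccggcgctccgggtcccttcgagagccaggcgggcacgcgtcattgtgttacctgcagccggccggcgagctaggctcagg
Notch3: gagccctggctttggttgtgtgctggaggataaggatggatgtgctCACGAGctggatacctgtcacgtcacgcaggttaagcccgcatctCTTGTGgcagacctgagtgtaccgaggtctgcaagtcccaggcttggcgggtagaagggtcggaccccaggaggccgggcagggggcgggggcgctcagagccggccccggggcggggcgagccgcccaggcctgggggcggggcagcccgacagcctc

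No window of the 7 held either RBPJ motif, the nuclear receptor half-site or the BMP-SMAD element in its 250 bases, which says only that these letters are not in these windows. Over all 32851 promoter windows of the same length, the longer RBPJ motif was found in 5.42%, its core in 21.6%, the half-site in 14.0% and the BMP-SMAD element in 9.59%. Nrarp held 1 E-box, a motif found in 6.02% of all windows, and 2 N-boxes. The N-box, found in 36.7% of all windows, was also present in Notch3 (2 matches), Notch1 (1 match) and Notch2 (1 match). The Jag1, Jag2 and Notch4 windows held none of the motifs.

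Expression was read as FPKM, a fragment number scaled by both the length of the transcript and the size of the library, so that levels can be set side by side between genes. With BMP4 + palovarotene the order of the mean levels was Hes1, Notch2, Notch3, Hey1, Notch1, Jag1, Nrarp, Jag2 and Notch4. In that group the libraries of Notch1 (3.06 to 3.11 FPKM) and Jag1 (2.90 to 3.22 FPKM) overlapped, as did those of Nrarp, Jag2 and Notch4, while the other neighbours in the order were apart. With BMP4 alone the order was Hes1, Notch2, Jag1, Hey1, Notch3, Notch1, Jag2, Nrarp and Notch4. There Hey1, Notch3 and Notch1 overlapped one another, as did Jag2 and Nrarp. Jag1 thus stood in the sixth place with palovarotene and in the third with BMP4 alone, and Notch3 in the third place with palovarotene and in the fifth with BMP4 alone. These places hold for the gene table, and some differ for the listed transcripts. The listed transcript of Notch1 was higher than the gene value. With BMP4 alone it averaged 7.19 FPKM, above the transcript of Notch3 at 5.37 FPKM. With BMP4 + palovarotene the transcript of Jag2 (0.932 FPKM) was above that of Nrarp (0.778 FPKM). Averaged over both groups, Hes1 was above 81.7% and Notch2 above 66.0% of all listed genes in level, whereas Jag2 and Nrarp were above only 7.07% and 6.97%.

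**Figure D1:**
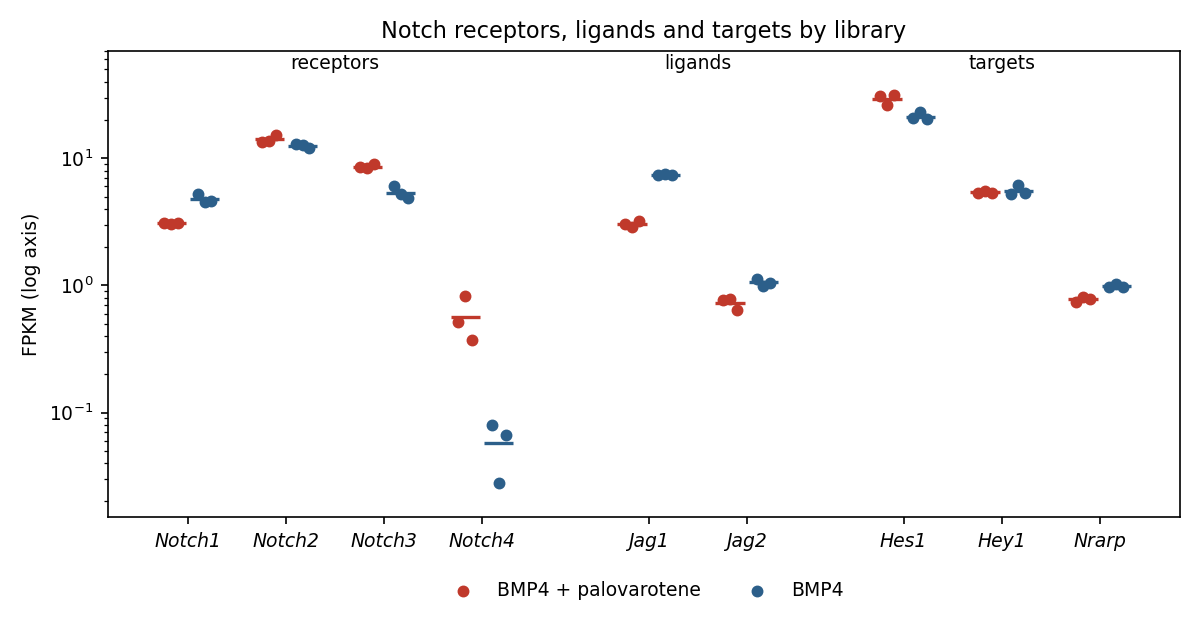
FPKM (log axis) of the 9 listed members in each library, with BMP4 + palovarotene to the left of BMP4 for each gene; points are libraries and bars are group means of 3. The groups are apart for Notch1, Notch2, Notch3, Notch4, Jag1, Jag2, Hes1 and Nrarp, and overlap for Hey1.

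The members split rather than moving one way: Notch3 and Hes1 were higher with BMP4 + palovarotene than with BMP4, and Jag1, Jag2, Notch1 and Nrarp were lower. Each gene was tested on log2(FPKM + 1) with limma, in 1 fit over the 11584 genes that averaged 0.5 FPKM or more across the 6 libraries, with Benjamini-Hochberg adjustment over all of them and a threshold of 0.05. Notch4 lay under that mean, and 8 members were tested. Of these 8, 2 were higher, 4 were lower and 2, Notch2 and Hey1, did not pass. Palovarotene moved much of the transcriptome: 43.0% of all tested genes passed, 19.1% as higher and 23.8% as lower, against 6 of 8 members. The groups did not overlap for 7 of the 8 tested members, beside 54.9% of all tested genes (24.3% higher, 30.6% lower). The median log2 fold change was -0.10 over the 8 members and -0.03 over all tested genes. Fold changes are given as BMP4 + palovarotene minus BMP4 on the log2(FPKM + 1) scale, which understates the change of genes of low level. These are bulk samples, in which fewer cells expressing a gene and less of its RNA per cell cannot be told apart.

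Among the ligands, Jag1 showed the largest change of any tested member. It encodes Jagged1, a canonical Notch ligand, and lies on chromosome 2 from 137081456 to 137116644, minus strand (build GRCm38), with 26 exons in its listed transcript. Jag1 was at 3.05, 2.90 and 3.22 FPKM in the BMP4 + palovarotene libraries, against 7.38, 7.48 and 7.37 FPKM in the BMP4 libraries. The spread within each group was small next to the gap between them. The means were 3.05 ± 0.161 FPKM with BMP4 + palovarotene and 7.41 ± 0.0559 FPKM with BMP4 (SD, n = 3 each), a ratio of 0.412. The log2 fold change was -1.05 (SE 0.0515, 95% interval -1.18 to -0.93; limma adjusted p = 9.94e-06), and 3.43% of all tested genes had a larger absolute change. Over the 13 alternative settings tried, it lay between -1.25 and -1.02.

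Jag2, the gene of the second Jagged ligand, was much less abundant and also fell. It lies on chromosome 12 from 112907819 to 112929776, minus strand. Its libraries were at 0.766, 0.779 and 0.641 FPKM with BMP4 + palovarotene, against 1.13, 0.998 and 1.05 FPKM with BMP4. All 3 palovarotene libraries lay below all 3 BMP4 libraries. The means were 0.729 ± 0.0760 FPKM with BMP4 + palovarotene and 1.06 ± 0.0662 FPKM with BMP4 (SD, n = 3 each), with a log2 fold change of -0.25 (SE 0.0559; limma adjusted p = 0.0105). This change was ordinary in size, as 36.0% of all tested genes had a larger one. It passed under each of the 12 alternatives in which it was tested, with a log2 fold change of -0.49 to -0.21.

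The summed level of the 2 listed ligands was 3.81, 3.68 and 3.86 FPKM with BMP4 + palovarotene, against 8.51, 8.47 and 8.42 FPKM with BMP4. The means were 3.78 ± 0.0959 FPKM with BMP4 + palovarotene and 8.47 ± 0.0461 FPKM with BMP4 (SD, n = 3 each; exact permutation test, two-sided, p = 0.1, the smallest that 3 against 3 libraries allow). Jag1 supplied 80.7 ± 2.39% of this sum with BMP4 + palovarotene and 87.5 ± 0.743% with BMP4 (SD, n = 3 each; exact permutation p = 0.1). The ratio of Jag1 to Jag2 was 3.98, 3.72 and 5.02 with BMP4 + palovarotene, against 6.54, 7.49 and 7.04 with BMP4. Jag1 therefore fell by a larger factor than Jag2, and it was the main listed ligand in every library of both groups. The shares of Jag1 and Jag2 add up to the whole and are not independent.

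**Figure D2:**
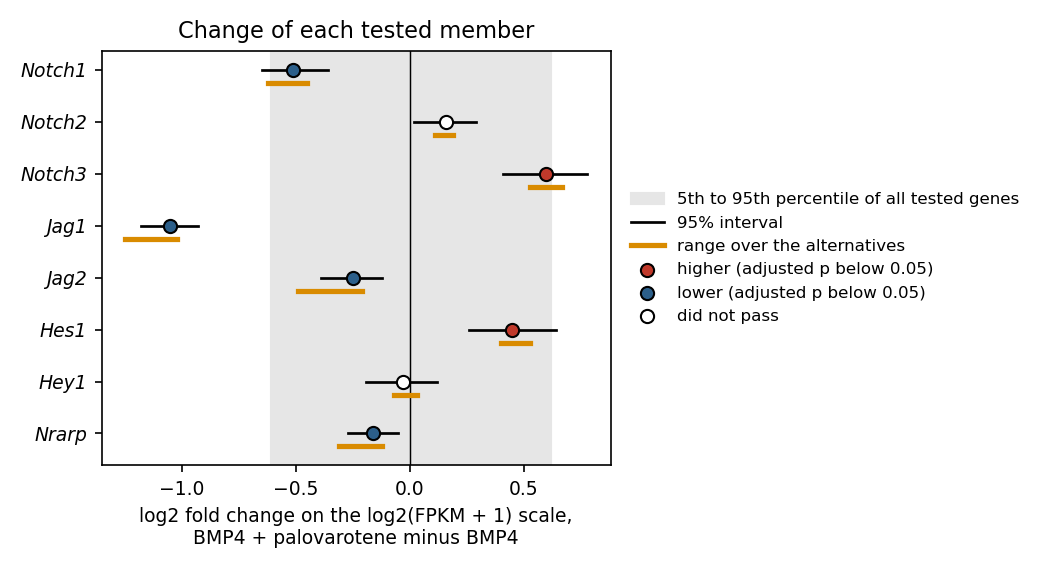
Log2 fold change of the 8 tested members (horizontal axis, BMP4 + palovarotene minus BMP4, log2(FPKM + 1) scale); circles are estimates from 3 libraries a group, black lines 95% intervals and orange lines the range over the alternatives. Jag1, at -1.05, is the only estimate outside the grey band, which spans -0.61 to 0.62 and holds the 5th to 95th percentile of all tested genes.

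Among the receptors, Notch1 was lower and Notch3 higher with palovarotene. Notch1, the receptor gene best studied in endothelial sprouting and arterial fate, lies on chromosome 2 from 26457903 to 26516663, minus strand, with 34 exons in its listed transcript. It was at 3.08, 3.06 and 3.11 FPKM in the BMP4 + palovarotene libraries, against 5.24, 4.54 and 4.64 FPKM in the BMP4 libraries. The palovarotene libraries lay almost on one value, and the BMP4 libraries were all higher. The means were 3.08 ± 0.0247 FPKM with BMP4 + palovarotene and 4.81 ± 0.381 FPKM with BMP4 (SD, n = 3 each). The log2 fold change was -0.51 (SE 0.0612, 95% interval -0.65 to -0.36; limma adjusted p = 0.000707), between -0.62 and -0.45 over 12 alternatives. Exons of 0610009E02Rik and Gm13568 on the opposite strand share 1068 and 414 bases with Notch1 exons, and since it is not stated whether reads were counted by strand, this value carries that uncertainty.

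Notch3, on chromosome 17 from 32120820 to 32166880, minus strand, moved the other way. It was at 8.50, 8.33 and 8.99 FPKM with BMP4 + palovarotene, against 6.05, 5.24 and 4.83 FPKM with BMP4. Every palovarotene library lay above every BMP4 library. The means were 8.60 ± 0.341 FPKM with BMP4 + palovarotene and 5.37 ± 0.625 FPKM with BMP4 (SD, n = 3 each), a ratio of 1.6. The log2 fold change was 0.60 (SE 0.0785, 95% interval 0.41 to 0.78; limma adjusted p = 0.00106), between 0.53 and 0.67 over the alternatives, and 10.7% of all tested genes had a larger absolute change. The antisense gene Gm17276 shares 488 exon bases with Notch3, with the same uncertainty about strand. Genes of smooth muscle cells and pericytes, the cells in which Notch3 is best known, went mostly the opposite way. Of 11 such markers 7 were listed, 1 was higher and 6 were lower, beside 19.1% and 23.8% of all tested genes. Lmod1, among the 6, was listed through the BMP4 group alone. The summed level of the 7 was 131.0 to 139.0 FPKM with BMP4 + palovarotene, against 273.0 to 277.0 FPKM with BMP4. The part of these markers in the Notch3 result was not tested.

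Notch2 was the most abundant receptor gene and moved little. It lies on chromosome 3 from 98013527 to 98150361, plus strand. Its libraries were at 13.5, 13.7 and 15.1 FPKM with BMP4 + palovarotene, against 13.0, 12.6 and 12.0 FPKM with BMP4. The groups did not overlap, but their nearest libraries were close. The means were 14.1 ± 0.842 FPKM with BMP4 + palovarotene and 12.5 ± 0.544 FPKM with BMP4 (SD, n = 3 each), with a log2 fold change of 0.16 (SE 0.0584, 95% interval 0.02 to 0.29) that did not pass after adjustment (limma unadjusted p = 0.0326, adjusted p = 0.0697). It passed only under median-ratio scaling, at 0.19 (limma adjusted p = 0.0414; 0.0414 to 0.214 over the alternatives). Gm42820 on the same strand shares 541 exon bases with it.

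Notch4, on chromosome 17 from 34564268 to 34588503, plus strand, was the least abundant member. It had 0.518, 0.819 and 0.371 FPKM in the BMP4 + palovarotene libraries, against 0.0799, 0.0279 and 0.0664 FPKM in the BMP4 libraries. The palovarotene libraries differed more than 2-fold among themselves, yet all lay above the BMP4 libraries. The mean was 0.569 ± 0.228 FPKM with BMP4 + palovarotene and 0.0581 ± 0.0270 FPKM with BMP4 (SD, n = 3 each). A gene is listed only where a group mean reaches about 0.5 FPKM, and Notch4 reached it through the palovarotene group alone. Its listing therefore presupposes a difference of this direction, and no test is given for it. Endothelial markers, among which Notch4 is often counted, gave no common direction. Of 24 such markers 9 were listed and 7 tested. Among the 7, 1 (Flt4) was higher and 3 (Flt1, Tek and Vwf) were lower, beside 19.1% and 23.8% of all tested genes. The summed level of the 9 was 31.6 to 33.2 FPKM with BMP4 + palovarotene and 30.2 to 33.5 FPKM with BMP4. The 2 untested markers, Sox7 (0.978 ± 0.101 FPKM with BMP4 + palovarotene and 0.0114 ± 0.0117 FPKM with BMP4) and Fli1 (0.540 ± 0.182 FPKM with BMP4 + palovarotene and 0.226 ± 0.0550 FPKM with BMP4), did not overlap between the groups either (SD, n = 3 each). Like Notch4 they reached the listing level through the palovarotene group alone, and Vwf did so through the BMP4 group alone. Most of the sum was Eng, an endothelial co-receptor of the BMP and TGF-beta pathways, at 23.6 ± 1.24 and 21.6 ± 1.61 FPKM (BMP4 + palovarotene and BMP4, SD, n = 3 each). Defining markers such as Pecam1, Cdh5, Kdr and Erg had no row in either table and are not analysed here, so the label endothelial rests on few of its markers in these data.

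The 4 receptors together summed to 25.6, 25.9 and 27.5 FPKM with BMP4 + palovarotene, against 24.4, 22.4 and 21.5 FPKM with BMP4. The sums did not overlap, at 26.3 ± 1.03 FPKM with BMP4 + palovarotene and 22.8 ± 1.50 FPKM with BMP4 (SD, n = 3 each; exact permutation p = 0.1, the smallest possible). Notch4 is part of this sum and of the shares below, although its direction was fixed by its listing. It held 2.18 ± 0.915% of the sum with BMP4 + palovarotene and 0.254 ± 0.112% with BMP4 (SD, n = 3 each). The sum without Notch4 was not tested. What differed more was the make-up of the sum. Notch1 held 11.7 ± 0.384% of it with BMP4 + palovarotene and 21.1 ± 0.747% with BMP4, and Notch3 held 32.7 ± 0.535% with BMP4 + palovarotene and 23.5 ± 1.18% with BMP4 (SD, n = 3 each; exact permutation p = 0.1 for both). Notch2 held the largest share in every library, 53.5 ± 1.09% with BMP4 + palovarotene and 55.1 ± 1.50% with BMP4, and its groups overlapped (SD, n = 3 each; exact permutation p = 0.2). The ratio of Notch3 to Notch1 was 2.76, 2.72 and 2.89 with BMP4 + palovarotene, against 1.15, 1.15 and 1.04 with BMP4. From the listed transcripts the same ratio was 1.84, 1.82 and 1.94 with BMP4 + palovarotene, against 0.772, 0.772 and 0.696 with BMP4. In both tables it was higher in every palovarotene library than in every BMP4 library, but which gene was the higher one in the BMP4 libraries depended on the table.

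**Figure D3:**
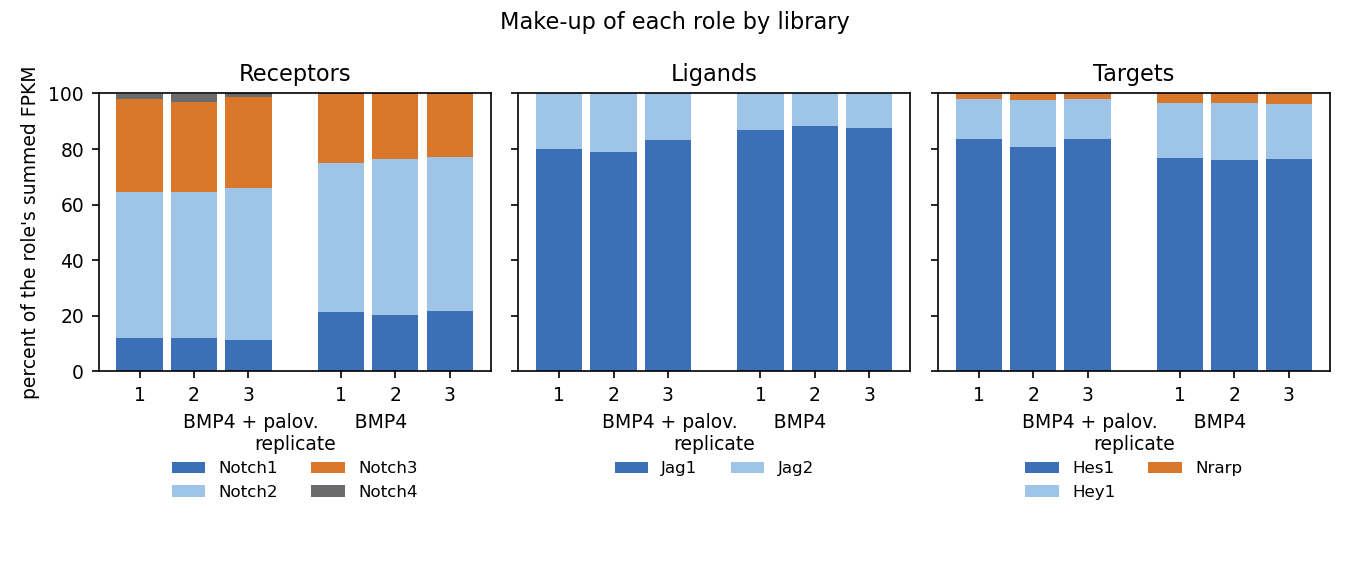
Percent of the summed FPKM of the receptors, ligands and targets held by each listed member, 1 bar per library, BMP4 + palovarotene (palov.) left of BMP4. The Notch1 share is about 12% in the palovarotene libraries and about 21% in the BMP4 libraries, while Notch2 holds over 50% in all 6.

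The target genes did not move together. Hes1 encodes a basic helix-loop-helix repressor that is a direct Notch target in many tissues and is also controlled by other pathways. It lies on chromosome 16 from 30064384 to 30067796, plus strand. Hes1 was at 30.7, 26.2 and 31.4 FPKM with BMP4 + palovarotene, against 20.6, 22.9 and 20.2 FPKM with BMP4, with no overlap between the groups. The means were 29.4 ± 2.81 FPKM with BMP4 + palovarotene and 21.2 ± 1.45 FPKM with BMP4 (SD, n = 3 each), a ratio of 1.38. The log2 fold change was 0.45 (SE 0.0813, 95% interval 0.26 to 0.64; limma adjusted p = 0.00443), between 0.40 and 0.53 over 13 alternatives, in each of which it passed.

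Hey1, which encodes a related repressor induced in endothelium by both Notch and BMP signals, showed no difference beyond its spread. It lies on chromosome 3 from 8663359 to 8667256, minus strand. Its libraries were at 5.29, 5.51 and 5.37 FPKM with BMP4 + palovarotene, against 5.22, 6.14 and 5.30 FPKM with BMP4. The groups overlapped, and 1 BMP4 library was the highest of the 6. The means were 5.39 ± 0.113 FPKM with BMP4 + palovarotene and 5.55 ± 0.510 FPKM with BMP4 (SD, n = 3 each), and the log2 fold change of -0.03 had a 95% interval of -0.19 to 0.12 (limma adjusted p = 0.709). Its sign turned under quantile normalization (0.01) and without BMP4 replicate 2 (0.03).

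Nrarp encodes an ankyrin-repeat protein that is induced by Notch and lowers its activity in a feedback loop. It is a gene of 1 exon on chromosome 2 from 25180758 to 25183339, plus strand. It was at 0.737, 0.811 and 0.786 FPKM with BMP4 + palovarotene, against 0.979, 1.03 and 0.967 FPKM with BMP4. The groups did not overlap, but the levels were low and the step small. The means were 0.778 ± 0.0378 FPKM with BMP4 + palovarotene and 0.991 ± 0.0307 FPKM with BMP4 (SD, n = 3 each), with a log2 fold change of -0.16 (SE 0.0468; limma adjusted p = 0.0287), and 52.9% of all tested genes had a larger absolute change. Nrarp no longer passed when any 1 of the 6 libraries was left out (-0.18 to -0.15; limma adjusted p = 0.0538 to 0.094) or after quantile normalization (-0.12; limma adjusted p = 0.0762). The antisense gene Gm38287 shares 2051 of its 2582 exon bases.

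Hes1 held most of the targets' summed level, 82.6 ± 1.76% with BMP4 + palovarotene and 76.5 ± 0.368% with BMP4 (SD, n = 3 each; exact permutation p = 0.1). Hey1 held 15.2 ± 1.50% with BMP4 + palovarotene and 20.0 ± 0.477% with BMP4 (SD, n = 3 each; exact permutation p = 0.1). The sum over Hes1, Hey1 and Nrarp was 36.7, 32.5 and 37.5 FPKM with BMP4 + palovarotene, against 26.8, 30.1 and 26.5 FPKM with BMP4. It followed the level of Hes1 library by library. The ratio of Hes1 to Nrarp was 38.0 ± 4.98 with BMP4 + palovarotene and 21.4 ± 0.786 with BMP4 (SD, n = 3 each; exact permutation p = 0.1).

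The transcript table gave each listed member 1 transcript, and the share of isoforms within a gene could therefore not be computed. Only 12.9% of 21101 tested transcripts passed the same test (6.49% higher, 6.42% lower), and the groups were apart for 34.4% (16.4% higher, 18.0% lower). Of the 8 tested member transcripts, 2 were higher and 2 were lower. The Jag1 transcript had a log2 fold change of -1.06 (SE 0.0760; limma adjusted p = 0.00103) and that of Notch1 one of -0.54 (SE 0.0815; limma adjusted p = 0.0123). The Notch3 transcript had a log2 fold change of 0.60 (SE 0.0948; limma adjusted p = 0.0153) and that of Hes1 one of 0.47 (SE 0.102; limma adjusted p = 0.0404). The transcripts of Jag2 (-0.30), Nrarp (-0.16), Notch2 (0.16) and Hey1 (-0.05) did not pass. The call of the Jag1 transcript held under every alternative, whereas those of the other 3 were lost under some of them. With the replicate number as a block, Hes1, Notch3 and Notch1 no longer passed (limma adjusted p = 0.178, 0.109 and 0.104). Hes1 did not pass without the variance trend either (limma adjusted p = 0.0606). With 1 library left out, fewer of all transcripts passed too (741 to 1197 higher and 711 to 1144 lower, against 1370 and 1354 with all 6 libraries). The Hes1 transcript no longer passed without BMP4 replicate 1, 2 or 3 (limma adjusted p = 0.102, 0.0576 and 0.119) or without palovarotene replicate 1 or 3 (0.133 and 0.127). That of Notch3 no longer passed without BMP4 replicate 2 (limma adjusted p = 0.0511) or without palovarotene replicate 1, 2 or 3 (0.0648, 0.0549 and 0.0679), and that of Notch1 without palovarotene replicate 1, 2 or 3 (0.0555, 0.0523 and 0.0532). Where the call was lost, the log2 fold change lay between 0.41 and 0.53 for Hes1, between 0.57 and 0.62 for Notch3 and between -0.55 and -0.54 for Notch1. The gene value of Notch3 and Nrarp equalled that of the transcript, whereas Notch1 as a gene was 0.668 to 0.670 times its transcript and Hes1 0.739 to 0.770 times.

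Beyond the members, 70 further genes of the pathway were followed, and they gave no common direction either. All 62 that were listed were tested, 12 were higher and 11 were lower, and 39 did not pass. That is 37.1%, beside 43.0% of all tested genes, and the median log2 fold change was -0.04. The counts by role below stand beside the same background, 19.1% of all tested genes higher and 23.8% lower. The 12 include Dner and Dlk2, which reached the listing level through the palovarotene group alone, so that their direction was fixed by their listing. Each gene named below with an absolute log2 fold change above 0.60 moved by more than any tested member other than Jag1.

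Of 7 listed ligand-like genes outside the canonical family, 4 were higher and 1 was lower. Of the 4, Dner and Dlk2 reached the listing level through the palovarotene group alone, so that their direction was fixed by their listing and lends the count no support. Nov, which encodes CCN3, a secreted matrix protein that can bind Notch1, was at 216, 202 and 216 FPKM with BMP4 + palovarotene, against 601, 659 and 605 FPKM with BMP4, a log2 fold change of -1.55 (limma adjusted p = 1.89e-06). Dner, a transmembrane ligand best known from the nervous system, was at 1.35, 1.13 and 1.21 FPKM with BMP4 + palovarotene, against 0.0326, 0.0687 and 0.0705 FPKM with BMP4, and its test is not given for that reason. The genes that rose and were not listed through the palovarotene group alone were Mfap2 (0.51) and Dlk1 (0.63). Dlk2 was at 0.882 ± 0.153 and 0.470 ± 0.237 FPKM (BMP4 + palovarotene and BMP4, SD, n = 3 each). Its test is not given either, and its call did not hold without any 1 of 5 of the libraries or with a pseudocount of 0.1.

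Among the 6 listed ubiquitin ligases of the Mindbomb and Neuralized families, through which ligands are taken up by the cell that presents them, 1 was higher and 2 were lower. Neurl3 averaged 2.13 ± 0.0439 FPKM with BMP4 + palovarotene and 0.540 ± 0.0711 FPKM with BMP4 (SD, n = 3 each; log2 fold change 1.02, limma adjusted p = 1.35e-05). Neurl1b averaged 1.58 ± 0.427 FPKM with BMP4 + palovarotene and 3.17 ± 0.199 FPKM with BMP4 (SD, n = 3 each; log2 fold change -0.70, limma adjusted p = 0.00372), and Neurl2 was lower by a smaller step (-0.46). Mib1, the main such ligase for Jagged and Delta ligands, was at 9.63 ± 1.14 FPKM with BMP4 + palovarotene and 7.77 ± 1.40 FPKM with BMP4, with overlapping groups (SD, n = 3 each; log2 fold change 0.28, limma adjusted p = 0.113). It passed without BMP4 replicate 2 (0.41, limma adjusted p = 0.0177).

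The 5 listed glycosyltransferases, which add sugars to the receptor's extracellular repeats and so tune its choice of ligand, gave 1 higher and 1 lower gene. Lfng, which encodes Lunatic fringe and favours Delta-like over Jagged ligands, was at 3.23, 3.55 and 3.66 FPKM with BMP4 + palovarotene, against 7.95, 7.05 and 6.83 FPKM with BMP4 (log2 fold change -0.88, SE 0.0712, limma adjusted p = 9.88e-05). Pofut1, which adds the fucose that fringe proteins extend, averaged 5.85 ± 1.23 FPKM with BMP4 + palovarotene and 3.05 ± 0.522 FPKM with BMP4 (SD, n = 3 each; log2 fold change 0.75, limma adjusted p = 0.00592). These neighbouring steps of one modification therefore went opposite ways in level. Rfng, a second fringe gene, passed as lower without BMP4 replicate 2 (-0.28, limma adjusted p = 0.0333).

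In receptor cleavage 1 of 3 proteases passed and 0 of 7 gamma-secretase genes did in limma, where 0 also had an unadjusted p under 0.05 and no other tool was run. The convertase gene Furin (0.13) passed without BMP4 replicate 1 (0.18, limma adjusted p = 0.0366). Adam17, a sheddase, was higher (26.6 ± 1.05 FPKM with BMP4 + palovarotene and 17.5 ± 0.498 FPKM with BMP4, SD, n = 3 each; log2 fold change 0.57, limma adjusted p = 0.00011), and it shares 311 exon bases with Iah1 on the opposite strand. Adam10, the main sheddase of ligand-bound receptors, was at 82.4 ± 5.78 and 75.4 ± 6.89 FPKM (BMP4 + palovarotene and BMP4, SD, n = 3 each; log2 fold change 0.13, limma adjusted p = 0.246).

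Of 9 listed genes of receptor trafficking and turnover, 2 were higher and 2 were lower. Dtx4, which encodes a Deltex ubiquitin ligase that binds Notch, had the largest log2 fold change of the pathway list at a pseudocount of 1, at 7.47, 6.99 and 7.20 FPKM with BMP4 + palovarotene, against 1.49, 1.46 and 1.35 FPKM with BMP4 (log2 fold change 1.76, SE 0.0524, limma adjusted p = 1.21e-06). With a pseudocount of 0.1 Dtx4 was at 2.25 and no longer the largest, since Dner, listed through the palovarotene group alone, exceeded it. Dtx2, a relative of Dtx4, was lower, at 2.91 ± 0.168 FPKM with BMP4 + palovarotene and 5.78 ± 0.486 FPKM with BMP4 (SD, n = 3 each; log2 fold change -0.79, limma adjusted p = 0.000156). The other 2 were Dtx3l (0.23, lost without palovarotene replicate 1 or 3 at limma adjusted p = 0.0678 and 0.0537) and Numbl (-0.33).

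In the nuclear complex 1 of 9 genes passed, Maml3 (-0.18, limma adjusted p = 0.0394), and it was lost without any of 4 libraries (limma adjusted p = 0.0942 to 0.115) and under quantile (0.0957) or median-ratio scaling (0.0531). Rbpj was at 5.14 ± 0.303 FPKM with BMP4 + palovarotene and 5.42 ± 0.314 FPKM with BMP4 (SD, n = 3 each; log2 fold change -0.07, limma adjusted p = 0.438). Maml1, a Mastermind co-activator, had a log2 fold change of 0.13 (limma adjusted p = 0.12) and passed without BMP4 replicate 1 (0.18, limma adjusted p = 0.0477) and under quantile normalization (0.17, limma adjusted p = 0.046). Of 15 co-repressor genes 3 were higher and 3 were lower. The split ran through the Groucho family, which Hes and Hey proteins recruit: Tle3 averaged 7.84 ± 0.156 FPKM with BMP4 + palovarotene and 4.29 ± 0.462 FPKM with BMP4, and Tle1 averaged 4.05 ± 0.286 FPKM with BMP4 + palovarotene and 7.71 ± 0.390 FPKM with BMP4 (SD, n = 3 each; log2 fold changes 0.75 and -0.79, limma adjusted p = 0.00023 and 0.000104). The other co-repressor genes that passed were Spen (0.39), Ctbp1 (0.18, lost without palovarotene replicate 1 at limma adjusted p = 0.0508), Tle2 (-0.50) and Bend6 (-0.47). Exons of genes on the opposite strand share 247 bases with Tle1, 98 with Tle2 and 41 with Spen. Of 6 further basic helix-loop-helix genes only Hes6, which counters Hes1, was listed, and it was lower (-0.43, limma adjusted p = 0.00754). Whether Hes6 responds to Notch in these cells was not tested, so its fall is not read as that of a Notch target.

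**Figure D4:**
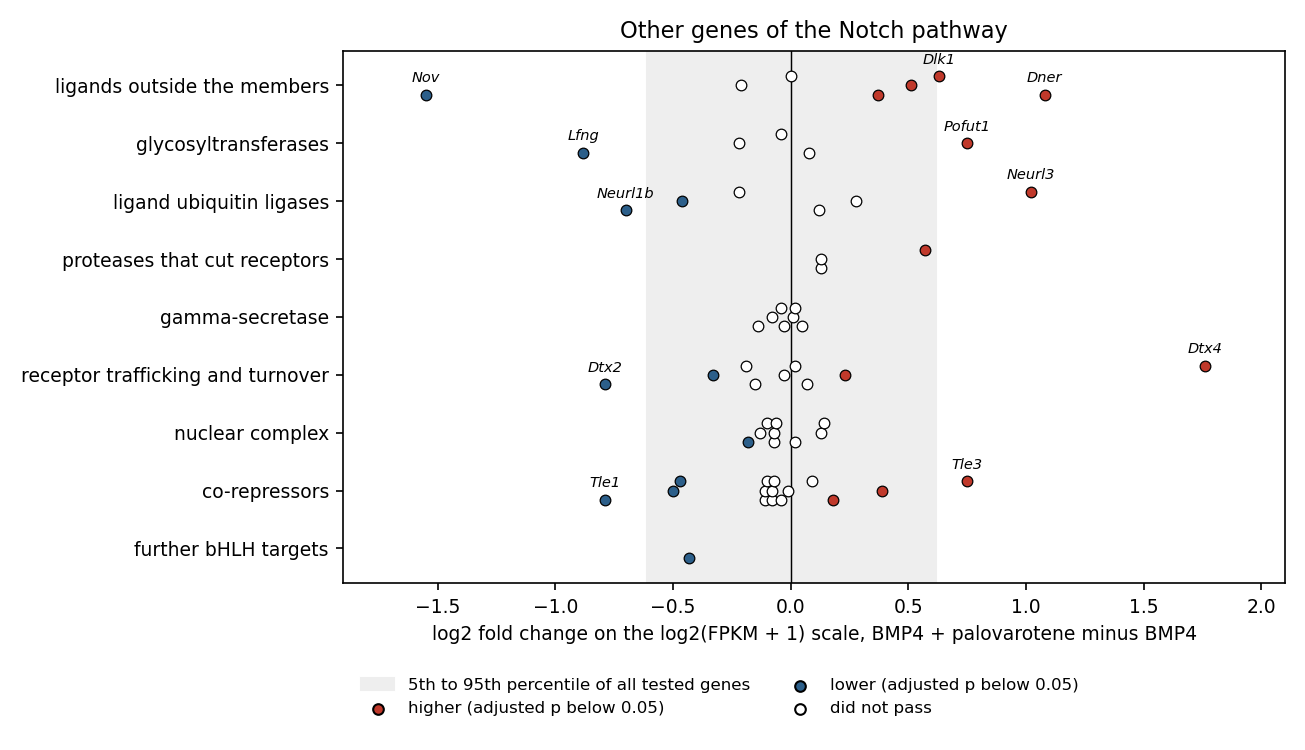
Log2 fold change (horizontal axis, BMP4 + palovarotene minus BMP4, log2(FPKM + 1) scale) of the 62 listed pathway genes outside the members, 1 point per gene, grouped by role. Dtx4 (1.76) and Nov (-1.55) lie farthest out, the gamma-secretase and nuclear genes lie near 0, and the grey band holds the 5th to 95th percentile of all tested genes.

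The genes most like Notch3 and Jag1 over the 6 libraries were found by the root mean square difference in log2(FPKM + 1), each gene centred on its own mean, among 11584 genes. For Notch3 they were Phlpp1 (difference 0.036), Gm340 (0.0399) and AC168977.2 (0.0442), with log2 fold changes of 0.60, 0.56 and 0.54. For Jag1 they were L1cam (0.0271), Havcr2 (0.0290) and Cd34 (0.0325), with log2 fold changes of -1.07, -1.04 and -1.08. Because these genes were picked for likeness over the same 6 libraries, their similar fold changes follow from the choice. Cd34 encodes a sialomucin found on endothelial and blood-forming progenitor cells, and L1cam a neural cell adhesion molecule.

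The libraries were close but not identical between the groups in the measures available. The sum of FPKM over all listed genes lay between 244119 and 251290, and 11 to 17 genes were listed at 0. Mitochondrially encoded genes held 6.01 to 6.38% of that sum with BMP4 + palovarotene and 4.57 to 6.1% with BMP4. The factors of the median-ratio scaling did not overlap, at 0.9827 to 0.9957 with BMP4 + palovarotene and 1.0068 to 1.0236 with BMP4. Markers of other cell types moved between the groups along with the members, and their part in the members' results was not tested. Of 12 fibroblast and mesenchymal markers 3 were higher and 7 were lower, beside 19.1% and 23.8% of all tested genes. The 12 summed to 1816 to 1866 FPKM with BMP4 + palovarotene, against 2810 to 3132 FPKM with BMP4. That gap was S100a4, at 431 ± 8.26 FPKM with BMP4 + palovarotene and 1602 ± 101 FPKM with BMP4 (SD, n = 3 each). The other 11 markers summed to 1380 to 1445 FPKM with BMP4 + palovarotene and 1314 to 1434 FPKM with BMP4. Changes in both directions lie within that sum: Col1a1 was at 684 ± 25.2 and 523 ± 32.9 FPKM, and Vim at 149 ± 4.17 and 258 ± 16.4 FPKM (BMP4 + palovarotene and BMP4, SD, n = 3 each). The 2 listed of 9 leukocyte markers (Cd14 and Cd68) summed to 10.1 to 11.1 FPKM with BMP4 + palovarotene, against 16.6 to 17.8 FPKM with BMP4. The 2 listed of 8 epithelial markers went opposite ways, Krt14 at 2.52 ± 0.263 FPKM with BMP4 + palovarotene and 32.5 ± 2.26 FPKM with BMP4, and Krt19 at 32.0 ± 0.582 FPKM with BMP4 + palovarotene and 9.98 ± 1.13 FPKM with BMP4 (SD, n = 3 each). Their sum was 34.1 to 35.0 FPKM with BMP4 + palovarotene, against 41.2 to 43.9 FPKM with BMP4.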

How the data were processed

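Polyadenylated RNA of 6 libraries was sequenced with a strand-specific kit, according to the protocols in the labels. HISAT2, StringTie and the build GRCm38 appear in the submitters' processing notes; strand use in counting is not given in the sources used. The authors deposited FPKM per gene and per transcript, per the file headers, on columns whose code R667 the sample labels give as palovarotene. No listed row had a group mean below 0.5001 FPKM in both groups. FPKM hold no counts, and whole reads could not be recovered: at the best step, 37.3 to 41.2% of low values lay within 0.1 of a whole number, where 20% is the share for evenly spread values, so library depth is unknown and counting intervals are left out. All numbers come from limma 3.58.1 in R 4.3.3 (trended variance, no replicate block) and SciPy 1.17.1 (exact permutation), on the authors' scaling. The fit was repeated with a pseudocount of 0.1, without or with a stricter (5 FPKM) filter, with quantile or median-ratio scaling, without the trend, with the replicate number as a block, and without each library in turn.

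The members, gene lists and tests were chosen with earlier results of these data known. Named pathway genes are the 10 called genes with the largest absolute change whose groups do not overlap, plus Rbpj, Adam10, Lfng, Mib1, Maml1 and 1 further gene that is not reported here; other pathway genes that make up a small count (Mfap2, Dlk1, Dlk2, Neurl2, Adam17, Dtx3l, Numbl, Maml3, Hes6, Furin, Rfng, Spen, Ctbp1, Tle2, Bend6), and marker genes, were named after their values were seen. Each table had 1 emptied line.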

Additional observations from a re-analysis of the deposited data

How the results depend on the processing

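Of the 8 tested members, Jag1, Jag2, Notch1, Notch3 and Hes1 kept direction and call under every alternative in which they were tested, Nrarp lost its call and Notch2 gained one as given above, and Hey1 reversed in sign under quantile normalization (0.01) and without BMP4 replicate 2 (0.03; -0.07 to 0.03 over the libraries left out). With a filter at 5 FPKM, 5 members were tested and 1 was lower, and among the pathway genes (42 tested) 5 were higher and 6 lower. Of all 7378 genes tested with that filter, 1419 were higher and 1692 lower. Over all tested genes, deviations of same-numbered libraries correlated at -0.064, -0.136 and -0.0207. These values show no pairing by replicate number, but they cannot establish that there was none. Aak1, described below, was low in replicate 3 of both groups. With the replicate block, 0 member transcripts were higher (2 at an unadjusted p under 0.05) and 1 was lower, and 9 pathway genes were higher and 10 lower. Calls fell over all features too. Of 21101 transcripts 402 were higher and 313 lower with the block, against 1370 and 1354 without it. Of 11584 genes 1738 were higher and 2106 lower with the block, against 2217 and 2759 without it. With this block Nrarp (limma adjusted p = 0.0994), Ctbp1 (0.064), Dtx3l (0.0645), Maml3 (0.0852) and Dlk2 no longer passed. Without the trend, 1 member transcript was higher, beside 1257 of all 21101 tested transcripts. With 1 library left out, 0 to 1 member transcripts were higher and 1 to 2 lower. Over all tested transcripts, 741 to 1197 were then higher and 711 to 1144 lower. The difference in the ligand sum was -4.69 FPKM, -4.53 after median-ratio scaling and -4.92 from the listed transcripts; that of the target sum was 7.79 FPKM, and 10.7 from transcripts. From transcripts the difference in the Notch2 share of the receptors turned to 0.551 percentage points, that of Notch1 was -11.9 and that of Nrarp among targets -1.06. The causes were not tested. No count test was run, since the values are not counts. Unknown depth limits the members near or below 1 FPKM: Notch4, Jag2 and Nrarp.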

Other observations

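Aak1, the gene of a kinase of clathrin-coated pits that was followed here among receptor trafficking genes, differed between libraries rather than between groups. It was at 5.25, 5.28 and 0.882 FPKM in BMP4 + palovarotene replicates 1, 2 and 3, against 5.14, 5.68 and 0.937 FPKM in BMP4 replicates 1, 2 and 3. Its listed transcript with the highest mean was at 5.65, 5.69 and 0.762 FPKM with BMP4 + palovarotene, against 5.60, 6.15 and 0.925 FPKM with BMP4. Replicate 3 was the low library in both groups.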
